A study of Mus musculus with 6 samples.

Results

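The nuclear-encoded subunits of the mitochondrial respiratory chain and ATP synthase were taken from the deposited expression table by gene name. A gene counted as a member if its name began with Ndufa, Ndufb, Ndufc, Ndufs or Ndufv and a digit (complex I), was Sdha, Sdhb, Sdhc or Sdhd (complex II), began with Uqcr (complex III), began with Cox, a digit from 4 to 8 and a letter from a to c (complex IV), or began with Atp5 (complex V). Of 54146 genes in the table, 87 names fitted this rule, 5 of them with -ps in the name were left out, and 82 members remained. They comprised 37 genes of complex I, 4 of complex II, 8 of complex III, 16 of complex IV and 17 of complex V. The rule goes by name. It includes Ndufa4, now regarded as a complex IV subunit, as well as Atp5s and Atp5sl, which are not subunits of the enzyme, and it leaves out subunits with other names, such as Ndufab1, Cyc1 and Cox4i1.

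D2A1 cells, a line from a mouse mammary tumor, were cultured in Matrigel and given a recombinant protein, either rSLURP1 or, as the control, rGST. Both proteins were used at 50 nM according to the labels, which give no genetic change in either group, and the genotype field names only the treatment. RNAseq was performed on 3 libraries per treatment, all from the same cell line in the same medium. SLURP1 is a small secreted protein that the study examined for its effect on tumor cell quiescence, and rSLURP1 against rGST is the only comparison the design holds. Because no label says that libraries of a treatment came from separate cultures, p-values measure only the spread between these libraries, which may be technical.

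The respiratory chain passes electrons from NADH through complex I, or from succinate through complex II, to ubiquinone, then through complex III and cytochrome c to complex IV, where oxygen is reduced. Complexes I, III and IV pump protons across the inner mitochondrial membrane, and complex V lets the protons return and makes ATP. Apart from complex II, each complex combines subunits encoded in the nucleus with subunits encoded in mitochondrial DNA, and tumor cells differ widely in how much of their ATP they obtain this way.

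Values are TPM (transcript abundance relative to a fixed library total), a unit that corrects for transcript length, so that levels can be compared between genes but the number of reads behind a value is unknown. Between 12390 and 12449 genes reached 1 TPM in the rGST libraries and between 11906 and 11981 in the rSLURP1 libraries. The reason for this difference was not tested. Krt18, a keratin of simple epithelia, was at 196 ± 4.13 TPM with rGST and 198 ± 1.68 TPM with rSLURP1 (n = 3 per group, SD), whereas the epithelial genes Epcam, Krt5 and Krt14 were listed at 0 in all libraries and Cdh1 was at 0.07 TPM or less. Krt8, another epithelial gene, had a mean of 1.56 TPM with rGST and 0.697 TPM with rSLURP1. It fell as deposited (log2 fold change -0.60) and did not pass the test as lower with the other scalings. Of 4 genes typical of mesenchymal cells, Cdh2 was at 0.05 TPM or less, and the other 3 fell as deposited and with the other 3 scalings. Vim was at 1259 ± 78.4 TPM with rGST and 665 ± 30.3 TPM with rSLURP1 (n = 3 per group, SD), Fn1 went from 5416 ± 21 to 3084 ± 100.2 TPM and Pdgfrb from 108 ± 5.01 to 19.6 ± 1.6 TPM, and their part in the results was not tested. Among markers of other cell types, the endothelial Pecam1 and Cdh5 were at 0.31 TPM or less, the leukocyte gene Ptprc at 0.01 TPM or less, and Adgre1 and Cd3e at 0. Cd68, a lysosomal protein gene used as a macrophage marker, was the exception at 3.77 ± 0.265 TPM with rGST and 9.6 ± 1.61 TPM with rSLURP1 (n = 3 per group, SD), and its part in the results was not tested.

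Most respiratory chain members had lower TPM in the rSLURP1 libraries, by amounts that were small and close to what genes in general showed. Of 76 members that could be tested, 51 passed the test against 67.2% of all 12301 tested genes. Among them 45 fell and 6 rose (adjusted p of 0.05 or less in limma on log2(TPM + 1)). Across all tested genes 58.5% fell and 8.66% rose, so the members' counts lay near this background. As deposited, the members' shift was milder in size. Their median log2 fold change was -0.20 against -0.33 for all tested genes, and 56 of the 76 members lay above the median of all genes. No member changed 2-fold or more as deposited, with or without the test, whereas 8.22% of all tested genes did so and also passed the test. In bulk RNA, fewer cells of a type and less RNA per cell cannot be told apart. The smallest two-sided p-value that exact permutation of 6 libraries allows is 0.1, so all smaller p-values come from limma across all genes.

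Replicates lay close together. The median coefficient of variation of the 76 members was 3.06% among rGST libraries and 4.24% among rSLURP1 libraries. Every rSLURP1 library was below every rGST library for 48 members and above for 7, against 61.7% and 9.75% of all tested genes. In total the members held 2.15% ± 0.016 of TPM with rGST and 1.95% ± 0.040 with rSLURP1 (n = 3 per group, SD), and the libraries of the treatments did not overlap. The members are abundant and short transcripts. Their median level was 221 TPM with rGST and 201 TPM with rSLURP1, against 23.2 and 17.4 TPM for all tested genes, and their longest annotated transcripts had a median of 1135 bases against 3152.

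**Figure D1:**
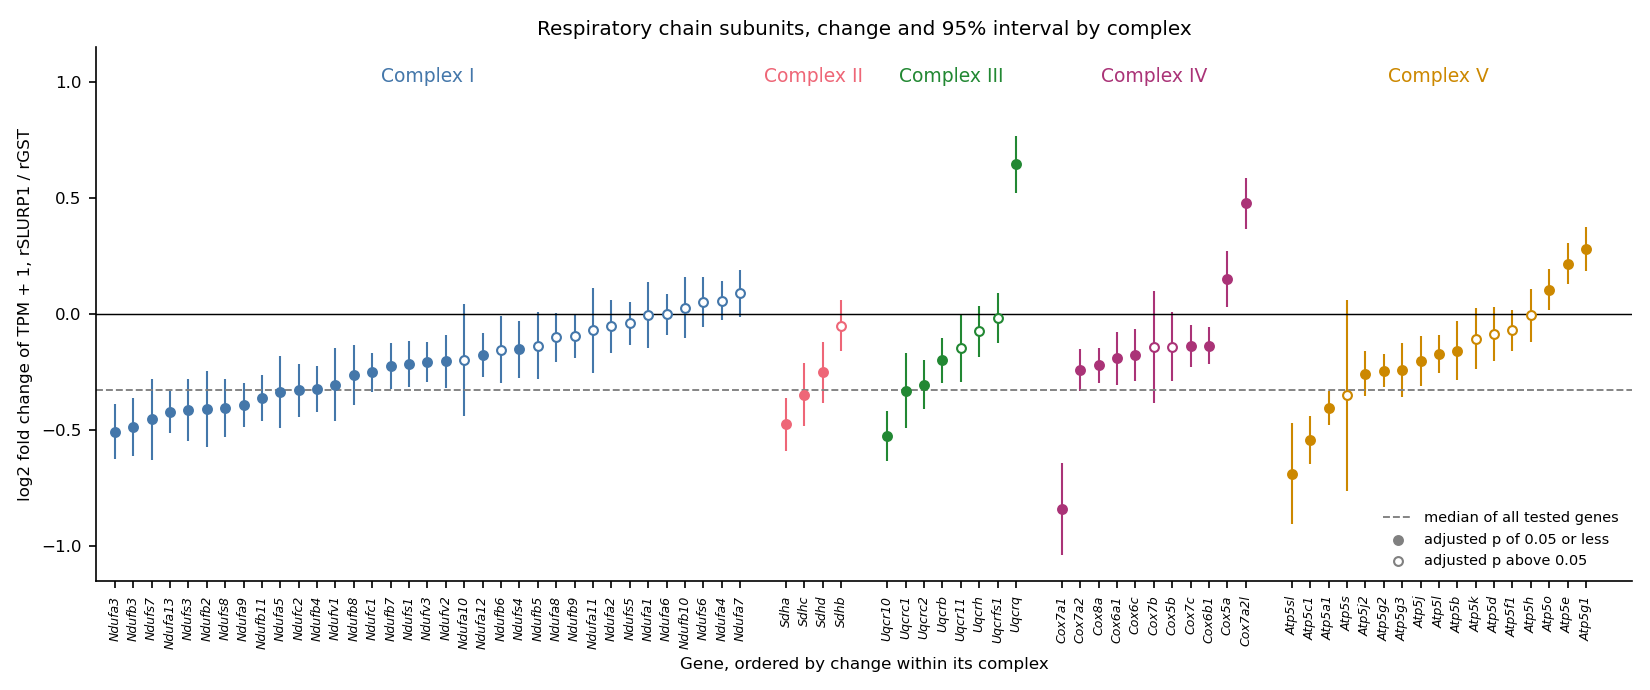
The log2 fold change of TPM + 1 (rSLURP1 over rGST) is plotted for 75 of the 76 tested members with its 95% confidence interval from limma, grouped by complex and ordered by size, filled where the adjusted p was 0.05 or less. Most points lie between 0 and the dashed line at -0.33, the median of all tested genes; Uqcrq and Cox7a2l stand highest and Cox7a1 lowest, and with other scalings of the libraries most of the values shift upward and many change sign.

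The direction of most members depended on how the libraries were scaled. TPM fixes the total of each library, and the median gene was lower by 0.33 on the log2 scale with rSLURP1. Scaling each library by the median ratio of its genes moved that median to about 0 (-0.0012). With this scaling 46 members were higher and 6 lower (background 26% and 25.2% of all tested genes), and the members' median was 0.15. With quantile normalization 18 members were higher and 21 lower (background 25.3% and 23.6%), with a median of -0.030 against 0.020 for all tested genes. With a correction of each library for transcript length and GC content, 21 were higher and 22 lower (background 27% and 21.9%). Their median was -0.015 against 0.030 for all tested genes. The members' median thus lay below that of all genes with quantile normalization and the length-GC correction. It lay above that of all genes as deposited and with median-ratio scaling. Values of single members are therefore given as deposited first, followed by those under other scalings.

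Mitochondrially encoded RNAs held a larger share of TPM with rSLURP1. The 13 mitochondrially encoded subunits held 11.6% ± 0.597 of TPM with rGST and 13.1% ± 0.918 with rSLURP1, without overlap between the treatments. TPM has a fixed total, and the part of this larger share in the lower values of other genes was not tested. With the mitochondrially encoded genes left out and TPM rescaled, the median of the nuclear members was -0.17 instead of -0.20.

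By complex, the median log2 fold change was -0.21 for complex I, -0.30 for complex II, -0.17 for complex III, -0.14 for complex IV and -0.17 for complex V. With median-ratio scaling all of these medians were above 0, from 0.051 for complex II to 0.21 for complex IV. With quantile normalization or the length-GC correction they lay between -0.049 and 0.065. The SD of the log2 fold changes among members was 0.17 in complex I and 0.18 in complex II, compared with 0.25 in complex V, 0.31 in complex IV and 0.35 in complex III. Each complex held a smaller share of TPM as deposited, going from 0.813% to 0.724% for complex I, from 0.0425% to 0.0345% for complex II, from 0.210% to 0.197% for complex III, from 0.416% to 0.388% for complex IV and from 0.671% to 0.611% for complex V. For all of these the rSLURP1 libraries lay below the rGST libraries.

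**Figure D2:**
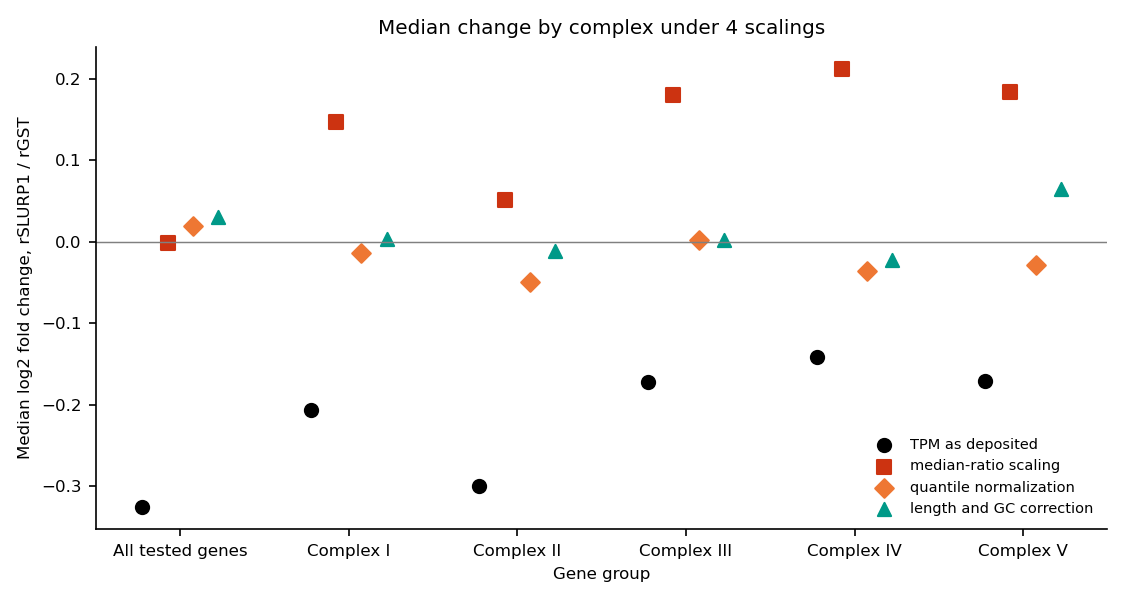
The median log2 fold change (rSLURP1 over rGST) of all tested genes and of the members of each complex is plotted under 4 scalings, namely TPM as deposited and the median-ratio, quantile and length-GC methods. As deposited every complex lies below 0 but above or near all genes (-0.33), with median-ratio scaling every complex lies above 0, and with the other 2 methods the complexes lie near 0.

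Complex I, the NADH dehydrogenase, had 36 tested members. As deposited, 22 of them fell and none rose (background 58.5% and 8.66% of all tested genes). Median-ratio scaling gave 21 higher and 1 lower (background 26% and 25.2%). The 7 nuclear core subunits, most of which carry the flavin or iron-sulfur clusters that take electrons from NADH to ubiquinone, all fell, against 58.5% of all tested genes. Their median of -0.30 was close to the -0.33 of all genes. With median-ratio scaling 3 of these 7 were higher and none lower, with quantile normalization 1 was lower and none higher, and with the length-GC correction 1 was higher and 3 were lower. Among the 28 accessory subunits (Ndufa4 and Ndufa4l2 not counted), 15 fell and none rose, with a median of -0.19.

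Within complex I, the Q module is the part that binds ubiquinone and the N module the part that oxidises NADH. The median change of the Q module subunits was lower than that of the N module subunits. All 5 subunits of the Q module fell, against 58.5% of all tested genes, with a median of -0.41. Of the 10 subunits of the N module 6 fell, with a median of -0.16, and the 20 other complex I members had a median of -0.24. The order of the medians was kept under the other scalings. With the length-GC correction 4 of 5 Q module genes were lower and none higher, whereas 5 of 10 N module genes were higher and none lower. The N module list was drawn up after the values had been seen, and the difference between the modules was not tested.

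Ndufs7, a core subunit that holds the last iron-sulfur cluster before ubiquinone, was at 103, 94.9 and 96.2 TPM in the rGST libraries and 63.8, 72.7 and 77.7 TPM in the rSLURP1 libraries. The groups did not overlap, and Ndufs7 fell (log2 fold change -0.45, SE 0.0746, limma adjusted p = 0.00118). Its value was -0.10, -0.18 and -0.30 after the median-ratio, quantile and length-GC methods in that order, the first pair of which left it short of the threshold. Ndufs3 and Ndufs8, its neighbours in the Q module, had log2 fold changes of -0.41 (limma adjusted p = 0.000483) and -0.41 (limma adjusted p = 0.000371). With median-ratio scaling they were at -0.062 and -0.058, and neither passed the test. With quantile normalization Ndufs3 was lower (-0.17) and Ndufs8 did not pass (-0.078), and both were lower with the length-GC correction (-0.24 and -0.24). Ndufv2 and Ndufs1, which carry clusters of the N module, had smaller changes of -0.20 (limma adjusted p = 0.00713) and -0.22 (limma adjusted p = 0.00279), and the sign of both turned with each of the other 3 scalings. Ndufv1, the subunit that binds NADH, was at -0.30 (limma adjusted p = 0.00486) and turned to 0.046 with median-ratio scaling.

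Ndufa3, a small accessory subunit of the membrane arm, had the largest change in complex I. It was at 357, 358 and 399 TPM in the rGST libraries and 266, 263 and 254 TPM in the rSLURP1 libraries, with all rSLURP1 libraries below all rGST libraries (log2 fold change -0.51, SE 0.0514, limma adjusted p = 0.000105). Ndufb3, another membrane-arm subunit, was at 113, 114 and 117 TPM in the rGST libraries and 83.9, 75.7 and 85.2 TPM in the rSLURP1 libraries and fell as well (log2 fold change -0.49, SE 0.0532, limma adjusted p = 0.000151). Both kept this direction with every scaling, and Ndufb3 did not pass the test with median-ratio scaling (-0.13). Ndufa3 overlaps the gene Tfpt, which lies on the opposite strand.

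At the other end of complex I, several members did not pass the test. Ndufa7, an N module subunit, was at 484, 508 and 511 TPM in the rGST libraries and 521, 560.4 and 519 TPM in the rSLURP1 libraries. Its rSLURP1 libraries were all higher than its rGST libraries, yet the difference did not pass the test as deposited (log2 fold change 0.09, SE 0.0433, limma adjusted p = 0.101; 95% interval -0.011 to 0.19). Ndufs6, which takes part in late assembly of the N module, had 176 ± 3.5 TPM with rGST and 183 ± 9.33 TPM with rSLURP1 (n = 3 per group, SD) and a log2 fold change of 0.053 (limma adjusted p = 0.333). Ndufa4, the subunit now placed in complex IV, had 398 ± 7.41 TPM with rGST and 415 ± 11.8 TPM with rSLURP1 (n = 3 per group, SD) and a log2 fold change of 0.057 (limma adjusted p = 0.193). Ndufa7, Ndufs6 and Ndufa4 all passed the test as higher with each of the 3 other scalings. The most abundant complex I member, Ndufb9, was at 1009.8 ± 15.8 TPM with rGST and 946 ± 42.8 TPM with rSLURP1 (n = 3 per group, SD) and did not pass the test as deposited (-0.095, limma adjusted p = 0.0728). Other scalings gave Ndufb9 opposite calls, higher after median-ratio scaling (0.26, limma adjusted p = 0.000504) and lower after quantile normalization (-0.20, limma adjusted p = 0.00654). Ndufa4l2, the hypoxia-related relative of Ndufa4, was at 0.04 TPM or less in all libraries and was not tested.

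Complex II, succinate dehydrogenase, has 4 subunits, all nuclear, and links the chain to the citric acid cycle. Sdha, the flavoprotein that oxidises succinate (ENSMUSG00000021577.14; GRCm38 chromosome 13, 74322254 to 74350280, minus strand), was at 118, 121 and 122 TPM in the rGST libraries and 81.2, 90.1 and 88 TPM in the rSLURP1 libraries. The groups were far apart relative to their spread, and Sdha fell (log2 fold change -0.48, SE 0.0485, limma adjusted p = 0.000107). It remained lower with the other 3 scalings, with log2 fold changes of -0.12, -0.22 and -0.11. A processed pseudogene, Gm16125, overlaps Sdha on the opposite strand. Sdhb, the iron-sulfur subunit that takes the electrons from Sdha, was at 82.2, 81 and 76.9 TPM in the rGST libraries and 76.5, 80.2 and 75 TPM in the rSLURP1 libraries. Its groups overlapped and it did not pass the test (log2 fold change -0.051, SE 0.047, limma adjusted p = 0.36; 95% interval -0.16 to 0.058), and its sign turned with each of the other 3 scalings. Sdhc and Sdhd, the membrane anchors, were at -0.35 (limma adjusted p = 0.00125) and -0.25 (limma adjusted p = 0.00512) as deposited, and with median-ratio scaling at 0.0035 and 0.099.

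Because Sdha and Sdhb sit side by side in the enzyme, their ratio was formed within each library, where scaling by a single factor cancels. The length-GC correction does not cancel, and under it Sdha was at -0.11 and Sdhb at 0.16 on the log2 scale. The TPM of Sdha was 1.44, 1.5 and 1.58 times that of Sdhb with rGST and 1.06, 1.12 and 1.17 times with rSLURP1. The ratios of the treatments did not overlap. These and the other ratios below were chosen after the values had been seen and are given as descriptions, without a test.

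Complex III, the cytochrome bc1 complex, held the member that rose most and one of those that fell most. Uqcrq, the small subunit that binds near cytochrome b (ENSMUSG00000044894.14; GRCm38 chromosome 11, 53427922 to 53430831, minus strand), was at 303, 279 and 284 TPM in the rGST libraries and 470.0, 461 and 423 TPM in the rSLURP1 libraries. All rSLURP1 libraries were above all rGST libraries, and Uqcrq rose by 56.6% (log2 fold change 0.65, SE 0.0524, limma adjusted p = 3.70e-05). With the other 3 scalings its log2 fold change was 1.0, 0.77 and 0.90. No other annotated gene overlaps it.

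Uqcr10, a small subunit next to the Rieske protein and cytochrome c1 (ENSMUSG00000059534.8; GRCm38 chromosome 11, 4701973 to 4704342, minus strand), went the other way. It was at 512, 493 and 525 TPM in the rGST libraries and 336, 370.2 and 357 TPM in the rSLURP1 libraries, again without overlap (log2 fold change -0.52, SE 0.0463, limma adjusted p = 5.37e-05). It was lower with the other 3 scalings too, at -0.17, -0.39 and -0.53. Within a library Uqcrq had 0.591, 0.566 and 0.540 times the TPM of Uqcr10 with rGST and 1.40, 1.25 and 1.19 times with rSLURP1, so that Uqcrq was the lower of the pair in every rGST library and the higher in every rSLURP1 library. Relative to Uqcrb, which also contacts cytochrome b, Uqcrq went from 1.34 ± 0.068 to 2.41 ± 0.138 (n = 3 per group, SD).

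The large subunits of complex III lay between these extremes. Uqcrc1 and Uqcrc2, the core proteins that face the matrix, had log2 fold changes of -0.33 (limma adjusted p = 0.00397) and -0.30 (limma adjusted p = 0.000678), and median-ratio scaling turned both to 0.022 and 0.046. Uqcrfs1, the Rieske iron-sulfur protein that passes electrons to cytochrome c1, was at 89.7, 88.3 and 92.7 TPM in the rGST libraries and 86, 93.4 and 88 TPM in the rSLURP1 libraries. Its groups overlapped and it did not pass the test as deposited (log2 fold change -0.018, SE 0.0465, limma adjusted p = 0.744; 95% interval -0.13 to 0.09), and it was higher with the other 3 scalings. Uqcrh, the hinge protein for cytochrome c1, was at -0.075 (limma adjusted p = 0.196), and its sign turned with the other 3 scalings.

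Complex IV, cytochrome c oxidase, has several subunits with isoforms for different tissues. Some isoforms known from muscle or testis were not detected or nearly so. Cox6b2, Cox8b and Cox8c were listed at 0 in all libraries, Cox6a2 reached at most 0.80 TPM, and Cox7b2 lay between 0.53 and 0.91 TPM. These 5 genes were not tested. Of the 11 that were, 7 fell and 2 rose as deposited, whereas median-ratio scaling gave 8 higher and 1 lower. Among all tested genes 58.5% fell and 8.66% rose as deposited, and 26% were higher and 25.2% lower after that scaling.

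The Cox7a family differed most among its members. Cox7a1, the isoform of heart and skeletal muscle (ENSMUSG00000074218.3; GRCm38 chromosome 7, 30184144 to 30186078, plus strand), was the lowest expressed of the family, at 33.7, 27.4 and 30.3 TPM in the rGST libraries and 15.6, 16.8 and 17.2 TPM in the rSLURP1 libraries. It fell by 45.7%, more than any other member (log2 fold change -0.84, SE 0.0841, limma adjusted p = 9.76e-05), and was lower with the other 3 scalings, at -0.50, -0.45 and -0.86. Cox7a2, the widely expressed isoform, was at 203, 196 and 192 TPM in the rGST libraries and 168, 162 and 169 TPM in the rSLURP1 libraries. It fell as deposited (log2 fold change -0.24, SE 0.0387, limma adjusted p = 0.00105), and median-ratio scaling turned it to 0.11. Cox7a2l, which encodes a related protein that joins complexes III and IV into supercomplexes (ENSMUSG00000024248.13; GRCm38 chromosome 17, 83501918 to 83517330, minus strand), was at 279, 274 and 302 TPM in the rGST libraries and 386, 411 and 394 TPM in the rSLURP1 libraries. It rose without overlap between the groups (log2 fold change 0.48, SE 0.0473, limma adjusted p = 9.31e-05), and was higher with the other 3 scalings, at 0.83, 0.62 and 0.66. RP23-431C5.1, which holds 17.7% of the 50-base stretches of Cox7a2l, was at 0.43 to 1.47 TPM.

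Taken as shares within each library, Cox7a2l held 54.1%, 55.1% and 57.6% of the summed TPM of Cox7a1, Cox7a2 and Cox7a2l with rGST and 67.7%, 69.6% and 67.9% with rSLURP1. Cox7a1 held 13.4% ± 0.979 of the sum of Cox7a1 and Cox7a2 with rGST and 9.03% ± 0.465 with rSLURP1 (n = 3 per group, SD). In both shares the libraries of the treatments did not overlap.

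Cox5a, a structural subunit around the catalytic core (ENSMUSG00000000088.7; GRCm38 chromosome 9, 57521274 to 57532426, plus strand), was at 188, 170.4 and 186 TPM in the rGST libraries and 197, 211 and 197 TPM in the rSLURP1 libraries. It rose as deposited (log2 fold change 0.15, SE 0.0515, limma adjusted p = 0.0339) and with the other 3 scalings, but it did not pass the test without rGST replicate 2 (0.10, adjusted p = 0.11 in limma) or without rSLURP1 replicate 2 (0.12, adjusted p = 0.0952 in limma). Its partner Cox5b was at 366 ± 12.8 TPM with rGST and 332 ± 27.6 TPM with rSLURP1 (n = 3 per group, SD) and did not pass the test (-0.14, limma adjusted p = 0.0828), and median-ratio scaling turned it to 0.21. The ratio of Cox5a to Cox5b was 0.497 ± 0.032 with rGST and 0.608 ± 0.045 with rSLURP1.

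The abundant small subunits Cox6a1, Cox6b1, Cox6c, Cox7c and Cox8a, each above 300 TPM, fell by 9.04% to 14.2%. Median-ratio scaling turned each of these 5 to a higher value, among them Cox6a1 at 0.16, Cox6b1 at 0.22 and Cox8a at 0.13. Cox8a was lower with quantile normalization (-0.15) and with the length-GC correction (-0.21). With the length-GC correction Cox6b1 was lower (-0.097) and Cox6c higher (0.19), while Cox6a1 and Cox7c did not pass the test. With quantile normalization no other of the 5 passed. Cox7b was at 465, 496 and 499 TPM in the rGST libraries and 520.5, 379.5 and 433 TPM in the rSLURP1 libraries. Its rSLURP1 libraries had the largest SD of complex IV (71.1 TPM), the groups overlapped, and it did not pass the test (-0.14, limma adjusted p = 0.258). Without rSLURP1 replicate 1, the highest of the 6, Cox7b fell (-0.26, adjusted p = 0.0123 in limma). With all libraries, median-ratio scaling turned it to 0.21.

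Complex V, the ATP synthase, had 17 tested members, of which 9 fell and 3 rose as deposited, whereas median-ratio scaling gave 11 higher and 2 lower. The background was 58.5% of all tested genes falling and 8.66% rising as deposited. With median-ratio scaling it was 26% higher and 25.2% lower. In the catalytic head, F1, Atp5a1 and Atp5b encode the alpha and beta subunits around the rotating shaft, and Atp5c1, Atp5d and Atp5e encode the gamma, delta and epsilon subunits of the shaft itself. Atp5c1 (ENSMUSG00000025781.14; GRCm38 chromosome 2, 10056016 to 10080510, minus strand) was at 336, 349.9 and 327 TPM in the rGST libraries and 221, 239 and 234 TPM in the rSLURP1 libraries. Every rSLURP1 library was below every rGST library, and it fell by 31.5% (log2 fold change -0.54, SE 0.0439, limma adjusted p = 3.62e-05). It was lower with the other 3 scalings, at -0.19, -0.38 and -0.26. Atp5e (ENSMUSG00000016252.7; GRCm38 chromosome 2, 174461072 to 174464105, minus strand), which sits on the same shaft, was at 527, 548 and 556 TPM in the rGST libraries and 611, 642 and 642 TPM in the rSLURP1 libraries and rose by 16.1% (log2 fold change 0.22, SE 0.0378, limma adjusted p = 0.00163). With the other 3 scalings it was at 0.57, 0.30 and 0.49. Atp5d, the remaining shaft subunit, was at 201 ± 2.77 TPM with rGST and 189.7 ± 11.5 TPM with rSLURP1 (n = 3 per group, SD), with overlapping groups (-0.086, limma adjusted p = 0.156), and its sign turned with the other 3 scalings.

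Atp5b, the catalytic subunit and the highest of F1, was at 797, 805 and 742 TPM in the rGST libraries and 654, 736 and 712 TPM in the rSLURP1 libraries. It fell as deposited (log2 fold change -0.16, SE 0.0543, limma adjusted p = 0.0334), turned to 0.20 with median-ratio scaling and 0.15 with the length-GC correction, and did not pass the test without rGST replicate 1 (-0.14), rGST replicate 2 (-0.14), rSLURP1 replicate 1 (-0.11) or rSLURP1 replicate 3 (-0.17). Atp5a1 was at 394 ± 2.2 TPM with rGST and 297 ± 4.66 TPM with rSLURP1 (n = 3 per group, SD) and fell (log2 fold change -0.41, SE 0.0315, limma adjusted p = 3.05e-05), but did not pass the test with median-ratio scaling (-0.052) or the length-GC correction (-0.037). Within a library, the TPM of Atp5c1 was 0.432 ± 0.0099 times that of Atp5b with rGST and 0.330 ± 0.0072 times with rSLURP1, and that of Atp5e was 0.697 ± 0.047 and 0.903 ± 0.031 times (n = 3 per group, SD). Such ratios do not depend on scaling by a single factor per library.

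Subunit c forms the rotating ring in the membrane, and Atp5g1, Atp5g2 and Atp5g3 encode the same mature protein behind different import sequences. Atp5g1 (ENSMUSG00000006057.15; GRCm38 chromosome 11, 96068852 to 96075670, minus strand), the least abundant of them, was at 192, 186 and 188 TPM in the rGST libraries and 219.7, 230.3 and 237 TPM in the rSLURP1 libraries. It rose by 21.4% without overlap (log2 fold change 0.28, SE 0.0405, limma adjusted p = 0.00064), and with the other 3 scalings it was at 0.63, 0.48 and 0.70. Atp5g2 was at 509, 502 and 510.0 TPM in the rGST libraries and 425, 433 and 427 TPM in the rSLURP1 libraries and Atp5g3 at 652, 646 and 669 TPM in the rGST libraries and 517, 586 and 563 TPM in the rSLURP1 libraries. Both fell as deposited, with log2 fold changes of -0.24 (limma adjusted p = 0.000293) and -0.24 (limma adjusted p = 0.0036). Median-ratio scaling turned both to 0.11, where Atp5g3 did not pass the test. Atp5g2 and Atp5g3 were lower with quantile normalization (-0.13 and -0.17) and with the length-GC correction (-0.14 and -0.12). The share of Atp5g1 in the summed TPM of subunit c was 14.2%, 14% and 13.7% with rGST and 18.9%, 18.4% and 19.3% with rSLURP1, while the sum itself went from 1351 ± 16.7 to 1212 ± 45.7 TPM (n = 3 per group, SD).

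**Figure D3:**
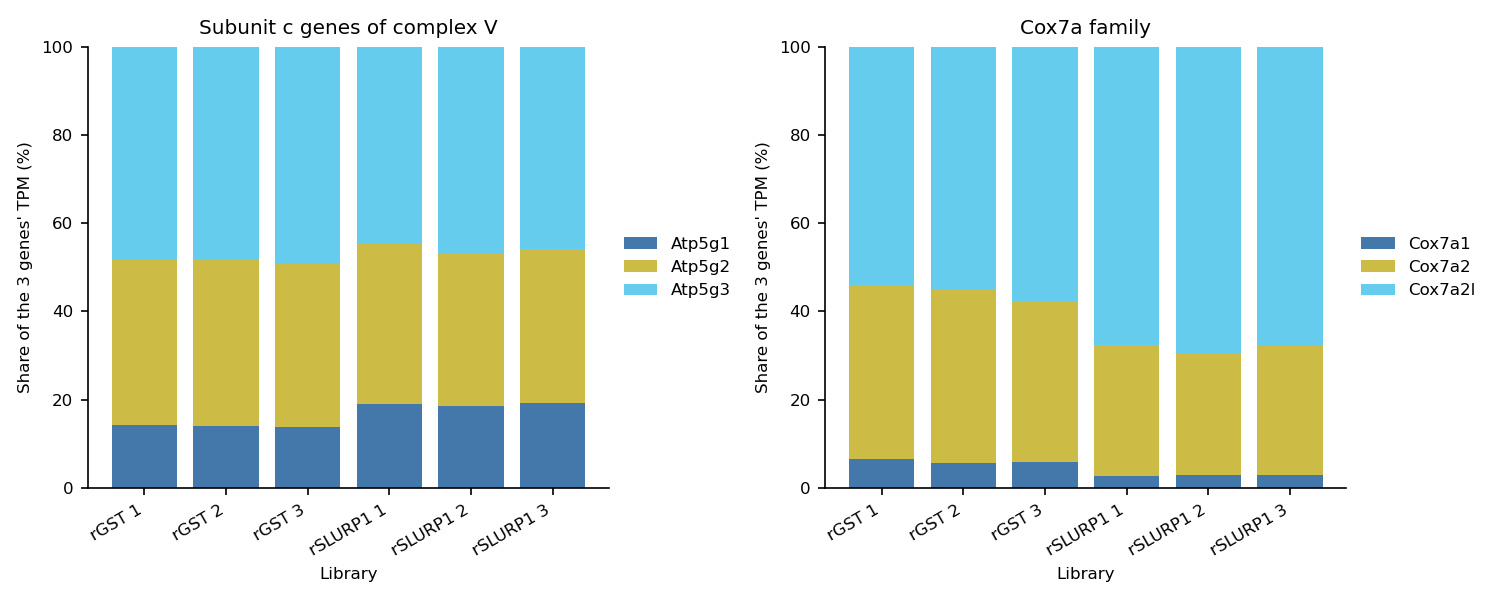
Stacked bars give, for each of the 6 libraries, the percentage of summed TPM held by Atp5g1, Atp5g2 and Atp5g3 (left) and by Cox7a1, Cox7a2 and Cox7a2l (right). Atp5g1 rises from 13.7% to 14.2% in the rGST libraries to 18.4% to 19.3% in the rSLURP1 libraries, and Cox7a2l from 54.1% to 57.6% to 67.7% to 69.6%; these shares are ratios within a library and do not depend on scaling by a single factor.

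Since these genes encode 1 mature protein and differed in direction, the 250 bases before the start of each are shown (RefSeq, GRCm38.p6, 5′ to 3′ on the strand of the gene). Capitals mark matches to GCGCATGC, a motif bound by NRF1, a transcription factor known for respiratory chain genes. In the Atp5g2 sequence the motif and its reverse complement overlap, so the capitals cover a match on each strand.
Atp5g1 promoter (chr11:96075632-96075881, minus strand): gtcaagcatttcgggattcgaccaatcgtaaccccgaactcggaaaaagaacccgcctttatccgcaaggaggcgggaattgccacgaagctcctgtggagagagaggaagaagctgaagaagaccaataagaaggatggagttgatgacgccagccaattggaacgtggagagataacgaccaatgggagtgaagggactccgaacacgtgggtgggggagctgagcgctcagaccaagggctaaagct
Atp5g2 promoter (chr15:102671048-102671297, minus strand): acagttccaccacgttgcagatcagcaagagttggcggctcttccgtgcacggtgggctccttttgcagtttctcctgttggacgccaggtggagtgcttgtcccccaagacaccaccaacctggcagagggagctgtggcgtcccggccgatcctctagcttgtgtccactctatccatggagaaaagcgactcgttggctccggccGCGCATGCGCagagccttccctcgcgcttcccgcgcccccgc
Atp5g3 promoter (chr2:73911327-73911576, minus strand): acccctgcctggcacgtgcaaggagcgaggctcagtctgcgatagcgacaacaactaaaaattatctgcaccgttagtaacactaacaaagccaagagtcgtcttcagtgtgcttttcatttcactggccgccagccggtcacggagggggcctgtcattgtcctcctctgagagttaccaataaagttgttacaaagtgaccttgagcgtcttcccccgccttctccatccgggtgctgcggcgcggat
Atp5g2 was the only 1 of the 3 with a match, beginning 42 bases before its start. The start used for Atp5g2 lies inside the gene as GENCODE annotates it. A match is a description and was not tied to any binding.

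The other parts of complex V differed less. In the peripheral stalk, which holds F1 still, Atp5o (ENSMUSG00000022956.11; GRCm38 chromosome 16, 91925214 to 91931687, minus strand) was at 255, 257 and 269 TPM in the rGST libraries and 274, 286 and 280.4 TPM in the rSLURP1 libraries, and Atp5f1 and Atp5h did not pass the test (-0.07, limma adjusted p = 0.134 and -0.006, limma adjusted p = 0.919), and median-ratio scaling turned them to 0.28 and 0.35. Atp5o rose as deposited (log2 fold change 0.10, SE 0.0375, limma adjusted p = 0.0388) and with the other 3 scalings. It did not pass the test without rGST replicate 1 (0.089), rGST replicate 2 (0.097), rSLURP1 replicate 2 (0.090) or rSLURP1 replicate 3 (0.10), and it overlaps other annotated genes. Atp5j, of the same stalk, fell (-0.20, limma adjusted p = 0.00602). The membrane subunits Atp5j2 and Atp5l fell (-0.26, limma adjusted p = 0.00111 and -0.17, limma adjusted p = 0.00353), while Atp5k did not pass the test (-0.11, limma adjusted p = 0.131). With median-ratio scaling Atp5j, Atp5j2, Atp5l and Atp5k turned to 0.15, 0.097, 0.18 and 0.25. Atp5sl, named Dmac2 in later annotation and known as an assembly factor of complex I rather than a subunit, was at 23.9, 21.6 and 22.1 TPM in the rGST libraries and 12.4, 13 and 15.6 TPM in the rSLURP1 libraries and fell (log2 fold change -0.69, SE 0.0938, limma adjusted p = 0.000466; ENSMUSG00000057229.11; GRCm38 chromosome 7, 25619414 to 25625551, plus strand). Its relative Atp5s was at 7.84 to 13.2 TPM, with overlapping groups (-0.35, limma adjusted p = 0.113). Without Atp5s and Atp5sl the median of complex V was -0.16.

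Some members, singled out after the values were seen, passed the test in 1 direction as deposited and with all 3 other scalings. Uqcrq, Cox7a2l, Atp5g1, Atp5e, Cox5a and Atp5o were higher, and Cox7a1, Atp5sl, Atp5c1, Uqcr10, Ndufa3 and Sdha were lower. Among all tested genes 8.02% were higher and 18.8% lower by the same criterion, against 6 and 6 of 76 members. As deposited 1065 of all tested genes were higher and 7200 lower, and 987 and 2312 remained so by this criterion. Keeping a call as higher was thus usual among genes in general and does not set these members apart. Each complex was represented, complex I and complex II by lower members alone. Of the higher members, Uqcrq, Cox7a2l, Atp5g1 and Atp5e overlap no other annotated gene and kept the call in every setting tried, the replicate block and each left-out library included. Stretches of Cox7a2l and Atp5g1 also occur in other genes.

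**Figure D4:**
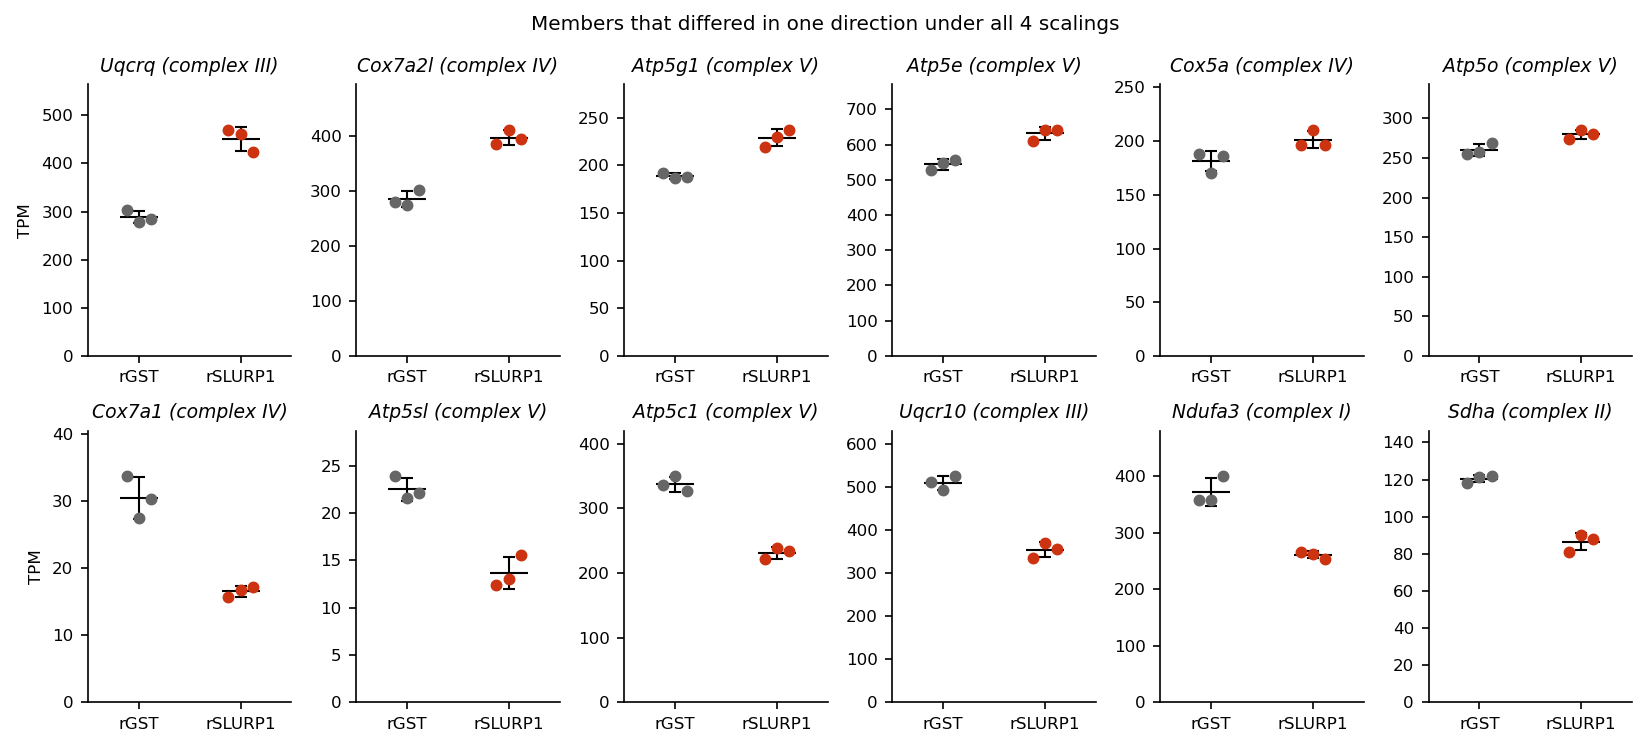
TPM of each library (points), with the group mean and SD (bars), is plotted for the members that passed the test in 1 direction under all 4 scalings, higher with rSLURP1 in the upper row and lower in the lower row. In no panel do the 3 rGST and 3 rSLURP1 libraries overlap; the narrowest gaps relative to the level are those of Cox5a and Atp5o, whose call was lost when single libraries were left out.

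Across the 76 members, log2 fold change had a Spearman correlation of -0.14 with the length of the longest transcript and 0.35 with mean TPM, as a description over genes that share the same 6 libraries. Over the 12293 tested genes with an annotated length the correlation with length was -0.25. Reads of some members cannot be assigned with certainty. Of the 76 members, 34 overlap another annotated gene, and 37.0% of the 50-base stretches of Ndufb4 also occur in AC119884.2, a gene listed at 173 to 217 TPM. Ndufb4 itself was at 94.5 ± 1.67 TPM with rGST and 75.4 ± 2.4 TPM with rSLURP1 (n = 3 per group, SD), so its fall as deposited (-0.32, limma adjusted p = 0.000373) is uncertain, and median-ratio scaling turned it to 0.029.

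Subunits that the name rule leaves out had small changes too. Of 7 listed, 6 were tested. Cox4i1, the main regulatory subunit of complex IV, was at 1142, 1144 and 1136 TPM in the rGST libraries and 1179.8, 1281 and 1280.2 TPM in the rSLURP1 libraries and rose as deposited (0.13, limma adjusted p = 0.0259), with a value of -0.011 after quantile normalization. Ndufab1, the acyl carrier protein of complex I, fell (-0.16, limma adjusted p = 0.0108), and Cyc1, Usmg5, Atpif1 and Cycs did not pass the test. The median of the 6 was -0.0077, and with median-ratio scaling all 6 were higher. Cox4i2, the isoform of lung and hypoxia, was listed at 0.

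The mitochondrially encoded subunits, which share complexes with the members, had a median above 0 as deposited. Of 13, 6 rose and 1 fell as deposited (background 8.66% and 58.5% of all tested genes), with a median of 0.24. With median-ratio scaling 11 were higher and none lower, and with the length-GC correction 7 were higher and none lower. The median turned to -0.079 with quantile normalization, where 2 were higher and 1 was lower. The levels of mt-Nd1 were 5109, 5199 and 4790.4 TPM in the rGST libraries and 6568, 6598 and 7624 TPM in the rSLURP1 libraries, without overlap (log2 fold change 0.46, SE 0.0659, limma adjusted p = 0.0006), whereas mt-Nd5, of the same complex, fell as deposited (log2 fold change -0.37, SE 0.0736, limma adjusted p = 0.0032). With quantile normalization mt-Nd5 was lower too (-0.76, limma adjusted p = 0.000134). It did not pass the test with median-ratio scaling (-0.011, limma adjusted p = 0.922) or the length-GC correction (-0.053, limma adjusted p = 0.601).

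Assembly factors, which build the complexes but are not part of them, had a median of -0.24 as deposited. Of 46 tested, 20 fell (43.5%) and 2 rose, a smaller share of falls than the 58.5% of all tested genes. After median-ratio scaling the counts were 10 higher and 4 lower, against 26% and 25.2% of all tested genes. Uqcc3, needed for early assembly of cytochrome b in complex III, was at 50.8, 57.1 and 62.4 TPM in the rGST libraries and 26.9, 26.1 and 28.9 TPM in the rSLURP1 libraries and fell by more than any member as deposited (log2 fold change -1.03, SE 0.0816, limma adjusted p = 3.34e-05), with values of -0.68, -0.69 and -0.91 under the other 3 scalings. Tmem186, a complex I assembly factor, was at 12.2 ± 1.14 TPM with rGST and 6.66 ± 0.229 TPM with rSLURP1 (n = 3 per group, SD), with a log2 fold change of -0.78 (limma adjusted p = 0.000191). Those that rose were Cox16 (0.36, limma adjusted p = 0.0107) and Uqcc2 (0.14, limma adjusted p = 0.0478).

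Regulators of mitochondrial biogenesis were low to moderate in level, between 6.07 and 54.8 TPM with rGST among the 12 tested. Of these, 8 fell (66.7%) and 1 rose as deposited, against 58.5% and 8.66% of all tested genes, whereas median-ratio scaling gave 2 higher and 1 lower. Quantile normalization gave 3 higher and 1 lower, and the length-GC correction gave 2 higher and none lower. Tfam, the factor that packages and transcribes mitochondrial DNA, was at 38.3 ± 6.72 TPM with rGST and 24.6 ± 2.39 TPM with rSLURP1 (n = 3 per group, SD), with a log2 fold change of -0.61 (limma adjusted p = 0.00343). Nrf1, Gabpa and Yy1, whose proteins bind many respiratory chain promoters, fell as deposited (-0.44, limma adjusted p = 0.00169, -0.40, limma adjusted p = 0.00148 and -0.58, limma adjusted p = 0.000215). Esrra, the nuclear receptor ERR alpha, rose as deposited (0.34, limma adjusted p = 0.0138). By the counts above, at most 1 of the falls of Tfam, Nrf1, Gabpa and Yy1 passed with median-ratio or quantile scaling. None passed with the length-GC correction. Ppargc1a and Ppargc1b, the PGC-1 coactivators, were at 1.57 TPM or less and were not tested. Of 13 enzymes of the citric acid cycle, which supplies NADH and succinate to the chain, 10 fell (76.9%) and 1 rose as deposited, whereas median-ratio scaling gave 3 higher and 1 lower, beside the same shares of all tested genes (58.5% and 8.66% as deposited, 25.2% lower and 26% higher after scaling). Cs, citrate synthase, was at 237 ± 1.66 TPM with rGST and 172 ± 11.3 TPM with rSLURP1 (n = 3 per group, SD), with a log2 fold change of -0.46 (limma adjusted p = 0.000165), and Dld rose as deposited (0.17, limma adjusted p = 0.0167).

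Promoter windows, from 250 bases before to 50 bases after a RefSeq start, were found for 66 members (71 windows) and searched on both strands for GCGCATGC (NRF1), CCGGAAGT (ETS factors such as GABPA) and AAGATGGCG (YY1). GCGCATGC occurred in 14.1% of member windows, in 5.63% of the windows of all tested genes and in 2.71% of all windows. AAGATGGCG occurred in 9.86%, 3.28% and 1.4%, and CCGGAAGT in 7.04%, 8.63% and 3.89%. Of the 7 member windows with AAGATGGCG, 6 had it 23 to 36 bases after the start. Among members that fell as deposited, 12 of 40 windows (30%) held at least 1 of these motifs, against 0 of 5 windows of members that rose, Uqcrq not being among the windows. Members that did not pass the test had them in 9 of 23 windows (39.1%), and the share over the windows of all tested genes was 16.4%. These small numbers were not tested. The 16 members without a window included Atp5a1, Atp5f1, Atp5sl, Cox6c, Ndufb9, Sdhc, Uqcrb, Uqcrc2 and Uqcrq.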

How the data were processed

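RNAseq of D2A1 cells in Matrigel was analysed in 6 libraries, grouped by their labels into 3 rGST and 3 rSLURP1. Per the submitters' processing notes, the authors used Cutadapt 1.18 for trimming, STAR 2.5.2b for alignment (mm10) and RSEM 1.3.3 for gene quantification, whereas the paper's methods give other versions of Cutadapt and RSEM; they deposited TPM, 1 column per library. The labels name a TruSeq kit and the paper's methods Smart-seq2. TPM keeps no depth, so no counting error was computed.

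The members and the gene lists were chosen with earlier results of these data known. Genes at 1 TPM or more in at least 3 libraries (12301) were tested with limma 3.58.1 (R 4.3.3; log2(TPM + 1), eBayes with trend) with Benjamini-Hochberg adjustment over all of them, at 0.05. The script was tested on simulated data. Member counts and medians are descriptions. Genes were named by rule: core subunits of complexes I to III and F1, subunit c, all of complex II, isoform pairs, and the 3 largest and 3 smallest changes per complex. Some others were named after their values were seen, and 1 member is not reported here on its own.

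Alternatives were a 0.1 pseudocount, omission of the filter, 1 TPM required in all 6 libraries, median-ratio scaling, quantile normalization, omission of mitochondrially encoded genes, no trend, a replicate block, a loess correction (span 0.3) for transcript length and GC content with and without that block, each library left out, and another assignment of Ndufa4, Ndufa4l2, Atp5s and Atp5sl. Of the table's identifiers, 54079 matched GENCODE M21 (GRCm38), used for coordinates and lengths. The methods name GENCODE M12.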

Additional observations from a re-analysis of the deposited data

How the results depend on the processing

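Scaling changed the counts and medians most. Over all tested genes, 3198, 3111, 3320 and 3095 were higher and 3094, 2905, 2690 and 2468 lower after the median-ratio, quantile and length-GC methods and the last of these plus the block, against 1065 and 7200 as deposited. Of the members, 46, 18, 21 and 19 were higher and 6, 21, 22 and 19 lower. Their median was 0.15 (median-ratio), -0.030 (quantile), -0.17 without mitochondrially encoded genes and -0.015 with the length-GC correction, the block included or not. For complex I these medians were 0.15, -0.013, -0.18 and 0.0038. After the median-ratio, quantile and length-GC methods (the last the same with the block), they were 0.051, -0.049 and -0.011 for complex II, 0.18, 0.0022 and 0.0017 for complex III, 0.21, -0.036 and -0.022 for complex IV, and 0.18, -0.028 and 0.065 for complex V. Median-ratio and quantile scaling move the median of all genes by construction; the cause of the library-wide shift was not tested.

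Among the genes named by rule, median-ratio scaling reversed Atp5b (0.20), Atp5d (0.27), Atp5g2 (0.11), Atp5g3 (0.11), Cox6a1 (0.16), Cox6b1 (0.22), Cox7a2 (0.11), Cox7b (0.21), Cox8a (0.13), Ndufs1 (0.13), Ndufv1 (0.046), Ndufv2 (0.15), Sdhb (0.30), Sdhc (0.0035), Sdhd (0.099), Uqcrc1 (0.022), Uqcrc2 (0.046), Uqcrfs1 (0.33) and Uqcrh (0.28). The length-GC correction, the block included or not, reversed Atp5b (0.15), Atp5d (0.13), Cox7b (0.016), Ndufs1 (0.12), Ndufv2 (0.056), Sdhb (0.16), Sdhc (0.029), Uqcrc1 (0.027), Uqcrfs1 (0.20) and Uqcrh (0.029). Quantile normalization reversed Atp5d (0.13), Cox6b1 (0.011), Ndufs1 (0.069), Ndufv2 (0.0047), Sdhb (0.23), Sdhd (0.013), Uqcrfs1 (0.26) and Uqcrh (0.069). Uqcrfs1 was 0.0082 without mitochondrially encoded genes and -0.052 to 0.0071 with 1 library left out. Over the genes named by rule and all settings, 516 values kept direction and call, 44 lost the call, 14 gained it and 50 reversed. Of the members named outside the rule, median-ratio scaling also turned Ndufb4 (0.029), Ndufb9 (0.26), Cox5b (0.21), Cox6c (0.18), Cox7c (0.22), Atp5f1 (0.28), Atp5h (0.35), Atp5j (0.15), Atp5j2 (0.097), Atp5k (0.25), Atp5l (0.18) and Uqcrb (0.15).

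Leaving out 1 library at a time gave 868 to 1006 genes higher and 6397 to 7023 lower, 4 to 6 members higher and 43 to 47 lower, and a members' median of -0.21 to -0.18. By complex the medians ran from -0.22 to -0.20 (I), -0.33 to -0.26 (II), -0.20 to -0.14 (III), -0.18 to -0.15 (IV) and -0.19 to -0.17 (V).

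Same-numbered libraries did not deviate together (correlations -0.056, -0.034 and -0.061 across genes), so no pairing by number was seen. Such correlations cannot exclude that same-numbered libraries were prepared together. With the replicate block 4 members were higher and 48 lower, against 1008 and 6954 of all genes; Cox5a (adjusted p = 0.0751) and Atp5o (adjusted p = 0.0581 in limma) did not pass. The pseudocount, the filters, the variance model and the assignment of Ndufa4, Atp5s and Atp5sl left the counts within 1.5 times. Read depth is unknown, so its effect could not be assessed.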

Other observations

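The 5 gene names with -ps that were left out are pseudogene entries. Atp5k-ps2 was at 0.61 to 4.63 TPM, Uqcrh-ps1 at 0 to 1.02 TPM and Atp5l2-ps at 0 to 0.24 TPM, and Atp5l-ps1 and Atp5l-ps2 were listed at 0. Other genes of the table share 50-base stretches with members. RP23-116G17.4 holds 52.5% of those of Atp5l and was at 6.21 to 10.7 TPM, against 629 TPM or more for Atp5l. AC122339.3 holds 26.2% of those of Ndufa12 and was at 22.1 to 46.0 TPM. RP23-392I3.13 holds 7.18% of those of Atp5g1 and was at 20.0 to 37.9 TPM. Many further genes hold smaller parts of Atp5g1, at most 1.11% each, among them Rps18 (0.0857%) at 1772 to 2782 TPM. The longest transcript of Atp5g1 had 4715 bases, against 753 for Atp5g2 and 862 for Atp5g3. The part of these stretches in the values of Atp5g1 was not tested.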
